A study of Mus musculus with 60 samples.

Results

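The genes described here encode noncollagen proteins of the extracellular matrix, the proteases that cut them and the inhibitors of those proteases. They are a list of 47 genes, found on the arrays by their annotated symbol or by their current symbol through the Entrez identifier. Of these, 42 had at least 1 probe, 50 probes in all. Of these probes, 36 for 33 genes were measured in at least 2 cultures of every cell line and could be tested, among 9703 probes tested for 8107 named genes. The rule uses no measured value, but the list was drawn up with earlier results of these data known.

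Total RNA of 5 mouse cell lines was compared on spotted 2-colour arrays. Pabpn1 is the gene of the protein that coats poly(A) tails in the nucleus, and a lengthened alanine stretch in it causes oculopharyngeal muscular dystrophy (OPMD) in people, the disease that the labels name. D7E carried transfected mutant Pabpn1 at a level labelled high, D7F carried mutant Pabpn1 at a level labelled low, WTA carried wild-type Pabpn1 at the high level, WTD carried wild-type Pabpn1 at the low level, and IM2 was untransfected. Each combination of genotype and level is a single line, so that a difference between lines and a difference of genotype or level cannot be told apart, and the mutation, the promoter and the tissue of origin are not given in the labels. Each line was grown as 3 cultures, and each culture was hybridised against a common IM2 reference with both dye orientations on 2 array parts that carry different probes, which makes 60 arrays and 15 cultures. The values below are log2 ratios of culture over reference, each the mean of the 2 dye orientations. A ratio of 0 is the level of the IM2 reference, the culture numbers have no order, and every size holds only if the deposited log ratios have base 10.

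The extracellular matrix of muscle has a basement membrane around each fibre and an interstitial matrix between the fibres. Laminins are built from an alpha, a beta and a gamma chain and form the basement membrane network that nidogens and perlecan tie to collagen IV. Fibulins, elastin and microfibril proteins make up elastic fibres, small leucine-rich proteoglycans bind collagen fibrils, and matricellular proteins such as Sparc and the thrombospondins alter how cells attach and respond to growth factors. Matrix metalloproteinases cut these proteins, and the tissue inhibitors of metalloproteinases (Timp genes) and Kunitz inhibitors such as Tfpi2 hold proteases in check.

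The promoters of 3 genes whose differences stood out between lines are printed as sequence context: Tfpi2 and Thbs2, which were lower in most transfected lines, and Timp1, which differed between transfected lines. They run from 250 bases before to 50 bases after the annotated start, in the RefSeq annotation of GRCm38.p6, 5′ to 3′ on the gene's strand. For Tfpi2, which has 3 start sites in the table, the start farthest downstream was taken. Capitals mark matches on either strand to 4 motifs, which do not overlap here. The AP-1 motif was searched as TGANTCA. The GC box was searched as GGGCGG. The CCAAT box was searched by these letters of its name. The TATA motif was searched as TATAAA.
Tfpi2, chr6:3968326-3968625 on the minus strand: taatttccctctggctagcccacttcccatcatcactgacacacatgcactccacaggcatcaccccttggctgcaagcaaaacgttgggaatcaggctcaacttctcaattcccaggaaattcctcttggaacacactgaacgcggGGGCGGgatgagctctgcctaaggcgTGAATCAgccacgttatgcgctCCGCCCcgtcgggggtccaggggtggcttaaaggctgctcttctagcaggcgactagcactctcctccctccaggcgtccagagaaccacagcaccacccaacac
Timp1, chrX:20869916-20870215 on the plus strand: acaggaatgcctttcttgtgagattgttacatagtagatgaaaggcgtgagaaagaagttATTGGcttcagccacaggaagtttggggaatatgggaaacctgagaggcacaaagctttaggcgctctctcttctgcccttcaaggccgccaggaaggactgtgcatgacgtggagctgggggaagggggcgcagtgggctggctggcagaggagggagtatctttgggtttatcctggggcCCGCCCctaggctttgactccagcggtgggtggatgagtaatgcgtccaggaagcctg
Thbs2, chr17:14694213-14694512 on the minus strand: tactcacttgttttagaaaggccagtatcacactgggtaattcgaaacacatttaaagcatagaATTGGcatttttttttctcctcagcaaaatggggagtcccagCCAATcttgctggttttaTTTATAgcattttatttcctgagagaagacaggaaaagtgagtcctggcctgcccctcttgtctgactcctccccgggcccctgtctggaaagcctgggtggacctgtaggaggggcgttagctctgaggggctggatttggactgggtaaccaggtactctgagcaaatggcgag
The Tfpi2 window held 1 AP-1 match and 2 GC boxes, the Timp1 window 1 GC box and 1 CCAAT box, and the Thbs2 window 2 CCAAT boxes and 1 TATA match. Among the promoters of the listed genes in the table, 45 promoters of 32 genes, AP-1 matches were found in 6.67%, GC boxes in 62.2%, CCAAT boxes in 31.1% and TATA matches in 13.3%. Among all 32851 promoters the shares were 7.81%, 35.7%, 37.4% and 13.6%. A match to such short letters is a description of the window and not a site of binding.

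The direction of the ratios was taken from Pabpn1, whose ratio was above 0 with either dye on 24 of the 24 part I arrays of transfected lines. The part II arrays have no such marker, and the same direction was taken for them, so that the signs of the part II probes (the tested Mfap2 probe and 1 probe each of Agrn and Fn1) rest on that assumption. Against IM2, the log2 difference of Pabpn1 was 1.79 in D7E, 1.09 in D7F, 2.37 in WTA and 1.61 in WTD. Per array, 46.0% to 99.9% of rows were filled, and 0.721% to 33.2% of filled values lay at the limits of the deposited scale and were treated as not measured. Over all probes the 2 dye orientations of a culture agreed little. Their median correlation in transfected cultures was 0.13 on part I and 0.12 on part II. In IM2 cultures it was -0.23 on part I and -0.09 on part II. The 10 arrays with over 20% of values at a limit or under 75% of rows filled included all 4 of IM2 culture 1 and 3 of the 4 of WTA culture 1, which is also the lowest WTA culture for several genes below. The labels say that the cultures are triplicates and no more, so that p-values measure the spread between these cultures. The comparisons against IM2 share the same 3 IM2 cultures. Likewise, the comparisons among transfected lines reuse the same cultures.

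Most of the genes that differed were lower in the transfected lines than in IM2. They include the laminin chain Lama4, the Kunitz inhibitor Tfpi2, the fibulins Fbln1 and Fbln2, the proteoglycan biglycan (Bgn) and thrombospondin 2 (Thbs2), and the laminin chain Lamc1 stood on the other side. In the mean of the 4 transfected lines, 2 probes were higher and 12 lower than in IM2, which is 38.9% of the 36 probes, beside 15.2% of all 9703 probes, 6.41% higher and 8.83% lower, at the same threshold (adjusted p under 0.05 by limma with Benjamini-Hochberg adjustment over all probes). In D7E 1 was higher and 6 were lower than in IM2, 19.4% beside 12.3% of all probes (4.12% higher and 8.21% lower). In D7F none was higher and 4 were lower, 11.1% beside 4.51% (1.60% higher and 2.92% lower). In WTA 1 was higher and 16 were lower, 47.2% beside 11.6% (5.17% higher and 6.38% lower). In WTD 1 was higher and 9 were lower, 27.8% beside 7.03% (2.08% higher and 4.95% lower). The median log2 difference from IM2 over the 36 probes was -0.20 in D7E, -0.25 in D7F, -0.48 in WTA and -0.30 in WTD, while the median over all probes lay between 0.02 and 0.05. These counts are not equally firm. When each line and IM2 were fitted without the other lines, 4 of 38 testable probes passed in D7E (beside 1.70% of all probes in that fit), 1 of 38 in D7F (0.157%), none of 39 in WTA (0.00942%, 1 of 10621) and 7 of 40 in WTD (1.62%) by the same limma test. In WTA alone 19 of the 39 had an unadjusted p under 0.05, and the same count over all probes is not given for that fit. In the fit of all 5 lines, an unadjusted limma p under 0.05 for WTA was found for 22 of the 36 probes and 2634 of all 9703.

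**Figure D1:**
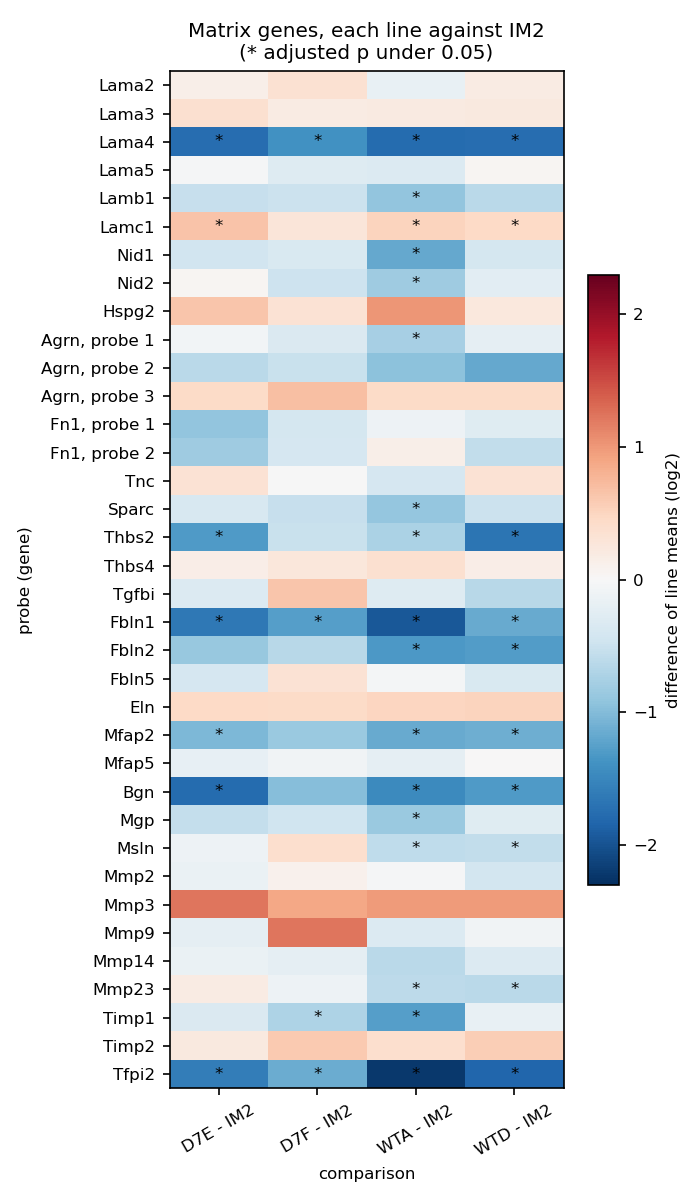
Log2 difference of each transfected line from IM2 for the 36 tested probes, with the 4 comparisons as columns and genes ordered by role as rows. Blue is lower and red is higher than IM2, and a star marks an adjusted p under 0.05; Lama4, Fbln1 and Tfpi2 are starred in all 4 columns, and WTA has the most stars with 17.

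Over all 10 comparisons 19 probes of 19 genes were called at least once, with 64 calls in all. Against IM2, 3 probes were called in all 4 lines (Lama4, Fbln1 and Tfpi2), 4 in 3 lines (Bgn, Lamc1, Mfap2 and Thbs2), 4 in 2 lines (Fbln2, Mmp23, Msln and Timp1) and 6 in WTA alone (Agrn, Lamb1, Mgp, Nid1, Nid2 and Sparc). Being called in WTA and not in another line does not show that the lines differ, and the direct comparisons of lines are given below. Of the 64 calls, 44 held in every fit that left out 1 culture and could test the probe, and 14 of these held in every other setting as well. For Fbln1 and Mfap2 only 13 of the 15 such fits could be made. Fbln1 was not testable without D7E culture 1 or 3, nor Mfap2 without IM2 culture 1 or 2, so their calls were not tried without those cultures. Every call outside the 14 ended in at least 1 other setting, and not all of these losses are named below. The 14 are D7E, WTD and the mean of the lines against IM2 for Lama4, Tfpi2 and Thbs2, D7E and the mean of the lines against IM2 for Bgn, the mean of the lines against IM2 and the interaction of genotype and level for Timp1, and mutant against wild-type for Msln. Not every setting could end every call. Fitting the compared lines alone ended 34 of the 64 calls, but for the mean of the lines it repeats the main fit. The calls for the mean are therefore not shown to be firmer than those of single lines.

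Among the laminin chains, Lama4, Lamb1 and Lamc1 differed from IM2. Lama4, an alpha chain of the basement membranes of blood vessels and muscle, stood at -1.69, -1.53 and -1.82 in the D7E cultures, -1.35, -1.39 and -1.20 in D7F, -2.23, -1.34 and -1.53 in WTA, -1.61, -1.65 and -1.77 in WTD, and -0.05, 0.11 and 0.16 in IM2. Every transfected culture lay below every IM2 culture, and all 24 arrays of the transfected lines had a negative ratio with either dye. Lama4 fell, with a log2 difference from IM2 of -1.76 in D7E (SE 0.19, adjusted p = 0.000297), which is 3.38-fold, and -1.39 in D7F (adjusted p = 0.002). The difference was -1.78 in WTA (adjusted p = 0.000222) and -1.75 for WTD (adjusted p = 0.000287). For the mean of the 4 lines it was -1.67 (SE 0.15, adjusted p = 5.53e-05).

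Lamb1, the beta chain of many laminins, stood at -0.79, -0.37 and -0.99 in D7E, -0.60, -0.72 and -0.70 in D7F, -1.59, -0.86 and -0.78 in WTA, -0.81, -0.68 and -0.90 in WTD, and -0.35, -0.04 and -0.15 in IM2. All transfected cultures were below all IM2 cultures, though the highest D7E culture came within 0.1 of the lowest IM2 culture. Lamb1 fell, with a log2 difference from IM2 of -0.90 in WTA (SE 0.21, adjusted p = 0.0162) and -0.64 in the 4-line mean (SE 0.16, adjusted p = 0.0221). The call for the mean ended without IM2 culture 2 (-0.57, adjusted p = 0.0539) or 3 (-0.62, adjusted p = 0.0624).

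Lamc1, the gamma chain of most laminins, went the other way. It stood at 0.54, 0.33 and 0.45 in D7E, 0.06, 0.12 and 0.04 in D7F, 0.26, 0.32 and 0.34 in WTA, 0.20, 0.13 and 0.42 in WTD, and -0.24, -0.15 and -0.24 in IM2. The IM2 cultures were the lowest 3 of the 15. Lamc1 rose by 0.66 in D7E (SE 0.10, adjusted p = 0.00206), by 0.51 in WTA (adjusted p = 0.00732) and by 0.46 for WTD (adjusted p = 0.0184), and by 0.48 in the 4-line mean (SE 0.08, adjusted p = 0.00231). The WTD call ended without WTD culture 3 (0.38, adjusted p = 0.0724). IM2 RNA against an IM2 reference gave negative Lamc1 ratios on 6 of 6 arrays, and the IM2 arrays have no marker of their direction. With the IM2 ratios turned in sign, the differences were 0.23 in D7E, 0.09 in WTA, 0.04 in WTD and 0.06 in the mean of the lines, and none passed.

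The other alpha chains that could be tested did not pass in any comparison. Line means for Lama2, the main alpha chain of the muscle fibre's basement membrane, were 0.04 in D7E, 0.26 in D7F, -0.28 in WTA, 0.09 in WTD and -0.10 in IM2. For Lama5 they lay between -0.26 in WTA and 0.11 in WTD, with IM2 at 0.06. For the tested probe of Lama3, an alpha chain of epithelial basement membranes, they lay between 0.06 in D7F and 0.24 in D7E, with IM2 at -0.13. The lowest adjusted p was 0.080 for Lama2 (D7F against IM2), 0.346 for Lama5 and 0.0869 for Lama3.

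The nidogens, which link laminin to collagen IV, were lowest in WTA. Nid1 stood at -0.83, -0.57 and -0.88 in D7E, -0.69, -0.63 and -0.69 in D7F, -1.93, -1.22 and -1.32 in WTA, -0.59, -0.89 and -0.70 in WTD, and -0.64, -0.08 and -0.24 in IM2. The WTA cultures lay below all others, and IM2 culture 1 fell among the other transfected cultures. Nid1 fell, with a log2 difference from IM2 of -1.17 in WTA (SE 0.19, adjusted p = 0.00269) and -0.59 in the 4-line mean (SE 0.15, adjusted p = 0.0217). The call for the mean ended without IM2 culture 2 (-0.47, adjusted p = 0.0654) or 3 (-0.55, adjusted p = 0.0706).

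Nid2 stood at -0.21, 0.32 and 0.16 in D7E, -0.49, -0.56 and -0.26 in D7F, -0.86, -1.09 and -0.38 in WTA, -0.14, -0.27 and -0.20 in WTD, and 0.10, 0.24 and -0.24 in IM2. All 3 WTA cultures were below the D7E and IM2 cultures, while D7E overlapped IM2. Nid2 fell by 0.81 in WTA against IM2 (SE 0.20, adjusted p = 0.0197), a call that ended without IM2 culture 1 (adjusted p = 0.0535) or WTA culture 1 (adjusted p = 0.066). Nid2 in WTA also lost its call in 6 of 13 other settings. In D7E it was higher than in WTA by 0.86 (SE 0.20, adjusted p = 0.0498). That call held only without D7E culture 1, WTA culture 3 or any of the IM2 cultures, and the adjusted p reached 0.155 without D7E culture 2.

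Agrn, the heparan sulphate proteoglycan agrin that gathers acetylcholine receptors at the nerve-muscle contact, has 3 tested probes, and they did not behave alike. Its first part I probe stood at -0.29, -0.04 and -0.33 in D7E, -0.59, -0.53 and -0.34 in D7F, -1.08, -0.98 and -0.70 in WTA, -0.29, -0.48 and -0.35 in WTD, and -0.54, 0.07 and -0.02 in IM2. The WTA cultures were below all others, while IM2 culture 1 lay among the D7F cultures. This Agrn probe fell by 0.76 in WTA (SE 0.17, adjusted p = 0.0133), but the call ended without WTA culture 1 (-0.68, adjusted p = 0.0541). The other part I probe differed by 0.51 in the 4-line mean (adjusted p = 0.0668), and the part II probe by -1.18 for WTD (adjusted p = 0.0843). With the probes of a gene averaged within a part, the WTA difference on part I was -0.29 (adjusted p = 0.292). Hspg2, the proteoglycan perlecan, was measured in 2 cultures of each line except WTD and had line means of 0.45 in D7E, 0.13 in D7F, 0.82 in WTA, 0.03 in WTD and -0.20 in IM2, with a lowest adjusted p of 0.0828 for WTA against IM2.

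**Figure D2:**
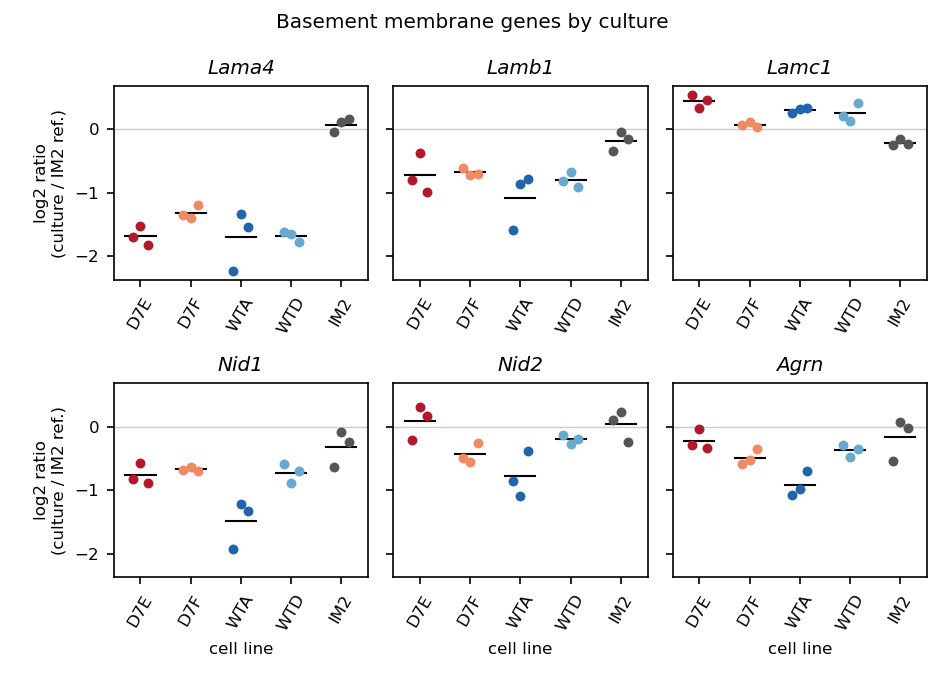
Log2 ratio of each culture over the IM2 reference for the 6 basement membrane genes that were called, with 1 point per culture, a bar for the line mean and the cell lines on the horizontal axis (Agrn is the probe that was called). Lama4 is low in all 4 transfected lines, Lamc1 is above IM2 in all of them, and Nid1, Nid2 and Agrn are lowest in WTA.

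Of the elastic fibre genes, the fibulins and a microfibril gene were lower in the transfected lines. Fbln1, the fibulin that binds fibronectin and laminin, stood at -2.07 and -1.07 in the 2 D7E cultures that measured it, -1.05, -1.54 and -1.04 in D7F, -2.26, -1.45 and -1.96 in WTA, -1.26, -1.01 and -1.04 in WTD, and 0.27, -0.10 and 0.02 in IM2. D7E culture 2 has no value because 1 of its arrays lay at the lower limit and was left out. All transfected cultures with a value were below -1 and all IM2 cultures above -0.2. Fbln1 fell, with a log2 difference from IM2 of -1.64 in D7E (SE 0.30, adjusted p = 0.00653), -1.27 in D7F (SE 0.27, adjusted p = 0.0219), -1.95 in WTA (adjusted p = 0.00136) and -1.17 for WTD (adjusted p = 0.0272). In the mean of the lines it fell by 1.51 (SE 0.22, adjusted p = 0.00126). The D7F call ended without IM2 culture 1 (adjusted p = 0.0754) or D7F culture 2 (adjusted p = 0.0902), and also in 6 of 12 other settings. The WTD call ended without IM2 culture 1 or 3 or any WTD culture (adjusted p = 0.0540 to 0.0821).

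Fbln2, a fibulin of basement membranes and elastic fibres, stood at -1.15, -0.80 and -0.56 in D7E, -0.78, -0.45 and -0.55 in D7F, -2.12, -0.98 and -0.75 in WTA, -1.13, -1.43 and -1.19 in WTD, and 0.10, 0.07 and -0.06 in IM2. The groups did not overlap with IM2, and WTA culture 1 was far below the other WTA cultures. Fbln2 fell, with a log2 difference from IM2 of -1.32 in WTA (SE 0.28, adjusted p = 0.0115), -1.29 for WTD (adjusted p = 0.020) and -1.03 in the 4-line mean (SE 0.22, adjusted p = 0.0102). The WTD call ended without IM2 culture 1 or WTD culture 2 or 3 (adjusted p = 0.0539 to 0.0702). The differences in D7E (-0.88, adjusted p = 0.0661) and D7F (-0.63, adjusted p = 0.234) did not pass.

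Mfap2, a glycoprotein of the microfibrils that carry elastin, was tested with its part II probe. It stood at -0.81, -0.53 and -0.36 in D7E, -0.53, -0.44 and -0.20 in D7F, -1.03, -0.74 and -0.29 in WTA, -0.83, -0.78 and -0.38 in WTD, and 0.43 and 0.50 in the 2 IM2 cultures that measured it. The transfected cultures were all below 0 and the 2 IM2 cultures above it. Mfap2 fell, with a log2 difference from IM2 of -1.03 in D7E (SE 0.23, adjusted p = 0.0127), -1.15 in WTA (adjusted p = 0.00744), -1.13 for WTD (adjusted p = 0.0129) and -1.04 in the 4-line mean (SE 0.19, adjusted p = 0.00386). The result rests on how IM2 was measured and on the direction of the part II arrays. In IM2 culture 3, 1 of the arrays lay at the lower limit and was left out, and with limit values kept the Mfap2 differences were 0.17 in D7E, 0.05 in WTA, 0.08 in WTD and 0.16 in the mean of the lines, on the other side of 0. Without the 10 arrays of low quality they were -0.61, -0.56, -0.65 and -0.56 in the same order, with the IM2 ratios turned in sign -0.10, -0.23, -0.20 and -0.11, and none passed in these settings.

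The remaining elastic fibre genes did not pass in any comparison. Eln, elastin itself, had line means between 0.00 in D7F and 0.08 in WTD beside -0.43 in IM2, where culture 1 stood at -1.41 and the others at 0.04 and 0.08. Fbln5, a fibulin needed for elastic fibre assembly, had line means of -0.31 in D7E, 0.41 in D7F, 0.03 in WTA, -0.28 in WTD and 0.08 in IM2, and its lowest adjusted p was 0.0611 for the interaction of genotype and level. Mfap5, another microfibril glycoprotein, had line means between -0.45 in WTA and -0.23 in WTD, with IM2 at -0.24.

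Among the proteoglycans, matricellular and adhesive proteins, biglycan, Sparc and thrombospondin 2 were lower. Bgn, a small leucine-rich proteoglycan, stood at -2.07, -1.98 and -1.27 in D7E, -0.91, -0.87 and -1.20 in D7F, -2.22, -0.85 and -1.32 in WTA, -1.44, -1.42 and -1.08 in WTD, and -0.02, -0.18 and 0.18 in IM2. Every transfected culture was below every IM2 culture, and 24 of 24 transfected arrays were negative. Bgn fell, with a log2 difference from IM2 of -1.77 in D7E (SE 0.30, adjusted p = 0.0039), -1.46 in WTA (adjusted p = 0.00991), -1.31 for WTD (adjusted p = 0.0247) and -1.38 in the 4-line mean (SE 0.24, adjusted p = 0.00298). The D7F difference of -0.99 did not pass (adjusted p = 0.0917). The WTD call ended without IM2 culture 1 or 3 or any WTD culture (adjusted p = 0.0515 to 0.0777).

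Sparc, a collagen-binding matricellular glycoprotein, stood at -0.37, -0.26 and -0.50 in D7E, -0.80, -0.34 and -0.49 in D7F, -1.21, -0.84 and -0.65 in WTA, -0.40, -0.61 and -0.50 in WTD, and 0.06, -0.03 and -0.05 in IM2. No transfected culture reached the IM2 cultures. Sparc fell, with a log2 difference from IM2 of -0.89 in WTA (SE 0.15, adjusted p = 0.00372) and -0.58 in the 4-line mean (SE 0.12, adjusted p = 0.0091), and the call for the mean ended without the 10 arrays of low quality (-0.54).

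Mgp, which keeps soft tissue from calcifying, stood at -0.65, -0.76 and -0.11 in D7E, -0.15, -0.40 and -0.71 in D7F, -1.04, -0.29 and -1.11 in WTA, -0.40, -0.20 and -0.09 in WTD, and 0.14, -0.09 and 0.09 in IM2. The transfected and IM2 cultures met at the edge, with the highest WTD culture at the level of the lowest IM2 culture. Mgp fell by 0.86 in WTA (SE 0.23, adjusted p = 0.0344). That call ended without IM2 culture 1 or 3 or WTA culture 1 or 3 (adjusted p = 0.0694 to 0.119), and also in 9 of 13 other settings.

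**Figure D3:**
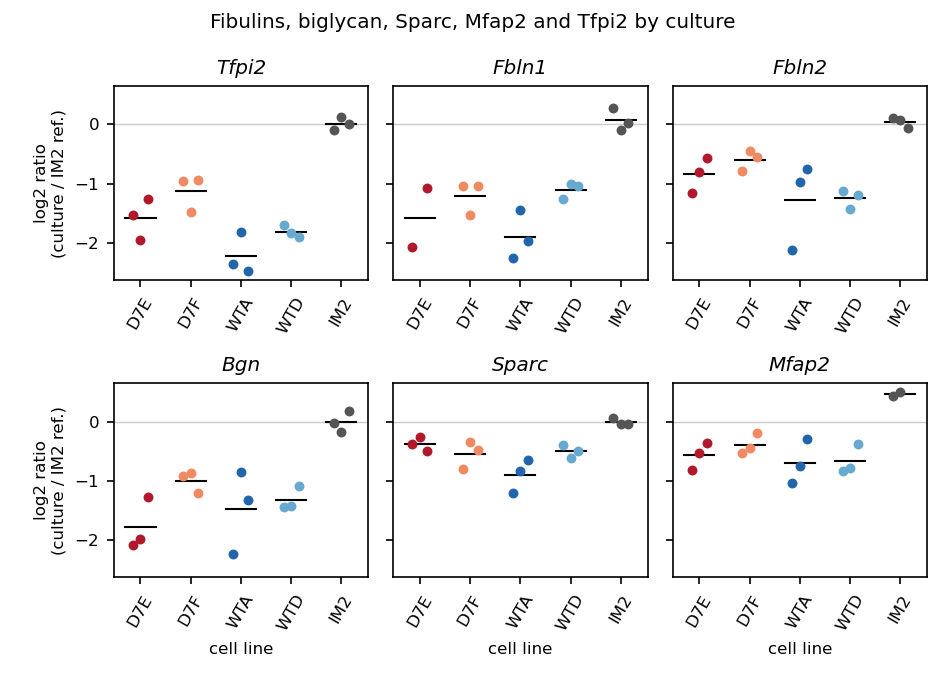
Log2 ratio of each culture over the IM2 reference for 6 genes that were lower in transfected lines, with 1 point per culture, a bar for the line mean and the cell lines on the horizontal axis. Mfap2 has only 2 IM2 points and Fbln1 only 2 D7E points; for Tfpi2, Fbln1, Fbln2, Bgn and Sparc no transfected culture reaches the IM2 cultures near 0.

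Thrombospondin 2 (Thbs2), a matricellular protein that restrains the growth of blood vessels, was lower in some lines than in others. It stood at -1.50, -1.14 and -1.22 in D7E, -0.41, -0.49 and -0.59 in D7F, -1.16, -0.67 and -0.31 in WTA, -1.55, -1.73 and -1.70 in WTD, and -0.02, 0.03 and 0.05 in IM2. The 3 WTD cultures were the lowest, the D7F cultures did not overlap with them, and all transfected cultures were below IM2. Thbs2 fell, with a log2 difference from IM2 of -1.30 in D7E (SE 0.18, adjusted p = 0.000978), -0.73 in WTA (adjusted p = 0.0206) and -1.68 for WTD (adjusted p = 0.000267), while the D7F difference of -0.52 did not pass (adjusted p = 0.128). The WTA call ended without WTA culture 1 (-0.51, adjusted p = 0.0589), and also in 6 of 13 other settings. In the mean of the lines Thbs2 fell by 1.06 (SE 0.14, adjusted p = 0.000574).

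Tgfbi, an adhesion protein induced by TGF-beta, was not called against IM2 in any line. It stood at -0.48, -0.41 and -0.46 in D7E, 0.56, 0.68 and 0.29 in D7F, -0.87, -0.16 and -0.24 in WTA, -0.68, -1.03 and -0.63 in WTD, and -0.55, 0.10 and 0.04 in IM2. The D7F cultures were the only ones above 0.2, and IM2 culture 1 lay near the D7E cultures. Its comparisons between transfected lines are given below.

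Msln, the surface glycoprotein mesothelin, stood at -0.24, -0.09 and -0.02 in D7E, 0.36, 0.43 and 0.36 in D7F, -0.55, -0.71 and -0.48 in WTA, -0.67, -0.44 and -0.55 in WTD, and 0.06, -0.04 and 0.00 in IM2. Both wild-type lines were below all other cultures, and the D7F cultures were above all others. Msln fell, with a log2 difference of -0.59 in WTA (SE 0.10, adjusted p = 0.00394) and -0.56 for WTD (adjusted p = 0.00823) against IM2, and both calls ended without the 10 arrays of low quality. The difference from IM2 in the mutant lines did not pass.

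Fibronectin, tenascin C and thrombospondin 4 did not pass in any comparison. The part I probe of Fn1, which cells bind through integrins, had line means of -1.08 in D7E, -0.58 in D7F, -0.30 in WTA, -0.47 in WTD and -0.18 in IM2. Its part II probe had line means of -0.82 in D7E, -0.39 in D7F, 0.14 in WTA, -0.56 in WTD and 0.00 in IM2, so that D7E was lowest on both (lowest adjusted p = 0.101). The tested probe of Tnc had line means of 0.32 in D7E, -0.02 in D7F, -0.39 in WTA, 0.32 in WTD and -0.01 in IM2 (lowest adjusted p = 0.0929, for the interaction). Thbs4, a thrombospondin of tendon and muscle, lay between 0.14 and 0.36 in the transfected lines and at -0.01 in IM2 (lowest adjusted p = 0.175).

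Among the inhibitors, Tfpi2 was lower in all 4 lines. This Kunitz-type inhibitor of plasmin and other serine proteases, whose promoter is printed above, stood at -1.52, -1.95 and -1.26 in D7E, -0.95, -1.48 and -0.93 in D7F, -2.35, -1.81 and -2.48 in WTA, -1.70, -1.83 and -1.90 in WTD, and -0.10, 0.13 and 0.01 in IM2. Transfected and IM2 cultures were far apart, with WTA lowest and D7F nearest to IM2. Tfpi2 fell, with a log2 difference from IM2 of -1.59 in D7E (SE 0.21, adjusted p = 0.000889), -1.13 in D7F (adjusted p = 0.0102), -2.22 in WTA (adjusted p = 0.000121) and -1.82 for WTD (adjusted p = 0.000497). The WTA difference is 4.67-fold and the D7F difference 2.19-fold, if the base of the deposited values is 10. In the mean of the lines Tfpi2 fell by 1.69 (SE 0.17, adjusted p = 0.000108).

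Timp1, an inhibitor of most matrix metalloproteinases, stood at -0.21, -0.41 and -0.50 in D7E, -0.64, -0.73 and -0.89 in D7F, -1.46, -0.91 and -1.55 in WTA, -0.15, -0.28 and -0.21 in WTD, and -0.01, -0.11 and -0.00 in IM2. The WTA cultures were lowest, the D7F cultures came next, and the WTD cultures lay just below IM2. Timp1 fell, with a log2 difference from IM2 of -0.71 in D7F (SE 0.16, adjusted p = 0.0217), -1.27 in WTA (adjusted p = 0.0005), which is 2.40-fold, and -0.62 in the 4-line mean (adjusted p = 0.00625). The D7F call ended without IM2 culture 1 or 3 or D7F culture 2 or 3 (adjusted p = 0.0524 to 0.0718). Timp2, which also takes part in activating Mmp2, had line means of -0.02 in D7E, 0.35 in D7F, 0.14 in WTA, 0.32 in WTD and -0.25 in IM2 and passed in no comparison (lowest adjusted p = 0.146).

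Of the proteases, Mmp23 and Mmp3 were called. Mmp23, a metalloproteinase held in the membrane, stood at 0.09, 0.26 and 0.11 in D7E, -0.19, 0.03 and -0.25 in D7F, -0.80, -0.49 and -0.61 in WTA, -0.67, -0.60 and -0.68 in WTD, and -0.10, -0.03 and 0.04 in IM2. The wild-type lines were below all other cultures, and the D7E cultures were above all others. Mmp23 fell, with a log2 difference of -0.60 in WTA (SE 0.11, adjusted p = 0.00556) and -0.62 for WTD (adjusted p = 0.00744) against IM2. In the mean of the lines it fell by 0.29 (adjusted p = 0.0466), a call that held only without D7E culture 2, D7F culture 2 or WTA culture 2 or 3, with an adjusted p of up to 0.132 without IM2 culture 3.

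Mmp3, which cuts many matrix proteins and activates other proteases, stood at 0.49, 0.91 and -0.02 in D7E, 0.34, -0.20 and 0.24 in D7F, 0.30, 0.17 and 0.14 in WTA, 0.21, 0.16 and 0.26 in WTD, and -1.98, -0.07 and -0.27 in IM2. IM2 culture 1, whose arrays are of low quality, was far below the rest, and the other IM2 cultures overlapped with D7F. Mmp3 rose by 1.02 in the 4-line mean (SE 0.32, adjusted p = 0.0489). Without IM2 culture 1 the difference was 0.41 (adjusted p = 0.202), and with the IM2 ratios turned in sign it was -0.52 (adjusted p = 0.271). The call held only without IM2 culture 2 or 3, D7E culture 3 or D7F culture 2.

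Mmp2, Mmp9 and Mmp14 did not pass in any comparison. Mmp2, a gelatinase, had line means of -0.50 in D7E, -0.25 in D7F, -0.38 in WTA, -0.77 in WTD and -0.35 in IM2. Mmp9, the other gelatinase, had line means of -0.53 in D7E, 0.90 in D7F, -0.65 in WTA, -0.40 in WTD and -0.33 in IM2. It stood at 1.33, 1.63 and -0.27 in the D7F cultures, against 0.42 and -1.08 in the 2 IM2 cultures that measured it, a difference of 1.23 with an SE of 0.58 (adjusted p = 0.269). Mmp14, a membrane collagenase that activates Mmp2, had line means of -0.11 in D7E, -0.16 in D7F, -0.58 in WTA, -0.27 in WTD and 0.04 in IM2, and its difference in WTA was -0.62 (adjusted p = 0.0583).

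The transfected lines were next set against each other. Lines of the same label had unlike mean Pabpn1 ratios, though no difference between them passed. The Pabpn1 difference was -0.58 for D7E minus WTA (limma, adjusted p = 0.0567) and -0.52 for D7F minus WTD (adjusted p = 0.201). For mutant minus wild-type it was -0.55 (adjusted p = 0.055). The part of the Pabpn1 level in the differences between these lines was not tested. In D7E against WTA, both labelled high, 4 of the 36 probes were higher and none was lower, 11.1% beside 1.64% of all probes (0.618% higher and 1.02% lower). They were Nid2 (given above), Timp1, Mmp23 and Msln. For Timp1 the means were -0.37 in D7E and -1.31 in WTA, a difference of 0.93 (adjusted p = 0.0144) that ended without WTA culture 1 (0.86, adjusted p = 0.055). For Mmp23 the means were 0.15 in D7E and -0.63 in WTA, a difference of 0.78 (adjusted p = 0.00643). For Msln the means were -0.11 in D7E and -0.58 in WTA, a difference of 0.46 (adjusted p = 0.046) that held only without WTA culture 3 or any of the IM2 cultures, and reached an adjusted p of 0.128 without D7E culture 2. When D7E and WTA were fitted without the other lines, none of 40 testable probes passed by limma, and 2 of all 14228 probes passed. In that fit 10 of the 40 had an unadjusted p under 0.05, and the same count over all probes is not given. In the fit of all 5 lines, 13 of the 36 probes and 1424 of all 9703 had an unadjusted limma p under 0.05.

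In D7F against WTD, both labelled low, 3 probes were higher and none was lower, 8.33% beside 0.453% of all probes (0.237% higher and 0.216% lower). Thbs2 had means of -0.50 in D7F and -1.66 in WTD, a difference of 1.16 (adjusted p = 0.0134). Tgfbi had means of 0.51 in D7F and -0.78 in WTD, a difference of 1.29 (SE 0.21, adjusted p = 0.0207). Both calls ended without any of the WTD cultures or D7F culture 1 or 2, at an adjusted p of up to 0.0773 for Thbs2 and 0.118 for Tgfbi. Msln had means of 0.39 in D7F and -0.55 in WTD, a difference of 0.94 (adjusted p = 0.00086) that held without each culture in turn. When D7F and WTD were fitted without the other lines, none of 43 testable probes passed by limma, and 3 of all 13907 probes passed. In that fit 12 of the 43 had an unadjusted p under 0.05, and the same count over all probes is not given. In the fit of all 5 lines, 9 of the 36 probes and 704 of all 9703 had an unadjusted limma p under 0.05.

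In the mean of both mutant lines against the mean of both wild-type lines, 2 probes were higher and none was lower, 5.56% beside 0.196% of all probes (0.103% higher and 0.0928% lower). Msln averaged 0.14 in the mutant lines and -0.57 in the wild-type lines, a difference of 0.70 (SE 0.07, adjusted p = 0.00156) that held in every setting tried. Turning the IM2 ratios in sign could not change this comparison, which does not use IM2. Mmp23 averaged 0.01 in the mutant lines and -0.64 in the wild-type lines, a difference of 0.65 (SE 0.08, adjusted p = 0.00459), and it did not pass with Cy5 arrays alone. The 6 mutant cultures and the 6 wild-type cultures did not overlap for either gene. Over the 36 probes the median difference of mutant minus wild-type was 0.19, beside 0.00 over all probes.

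In the lines labelled high against those labelled low, none of the 36 probes passed (limma with Benjamini-Hochberg adjustment), beside 0.381% of all probes (0.206% higher and 0.175% lower). An unadjusted limma p under 0.05 was found for 8 of the 36 probes, beside 768 of all 9703. The median difference was -0.14 over the 36 probes and -0.01 over all probes.

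The interaction of genotype and level sets the average of WTD and D7E against that of WTA and D7F, and asks whether the lines differ beyond a sum of genotype and level. It was called for 3 probes, 1 higher and 2 lower, 8.33% beside 2.37% of all probes (0.845% higher and 1.53% lower). Timp1 averaged -0.29 in WTD and D7E and -1.03 in WTA and D7F, a difference of 0.74 (SE 0.11, adjusted p = 0.00458) that held in every setting tried. The interaction does not use IM2 either, so turning the IM2 ratios in sign could not change it. Thbs2 averaged -1.47 in WTD and D7E and -0.61 in WTA and D7F, a difference of -0.87 (SE 0.13, adjusted p = 0.00391) that held without each culture in turn and ended with Cy5 arrays alone. Tgfbi averaged -0.62 in WTD and D7E and 0.04 in WTA and D7F, a difference of -0.66 (SE 0.15, adjusted p = 0.0452) that held only without WTA culture 1, D7F culture 3 or any of the IM2 cultures, with an adjusted p of up to 0.112 without D7F culture 2. With the culture number as a block the Tgfbi interaction had an adjusted p of 0.0596.

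**Figure D4:**
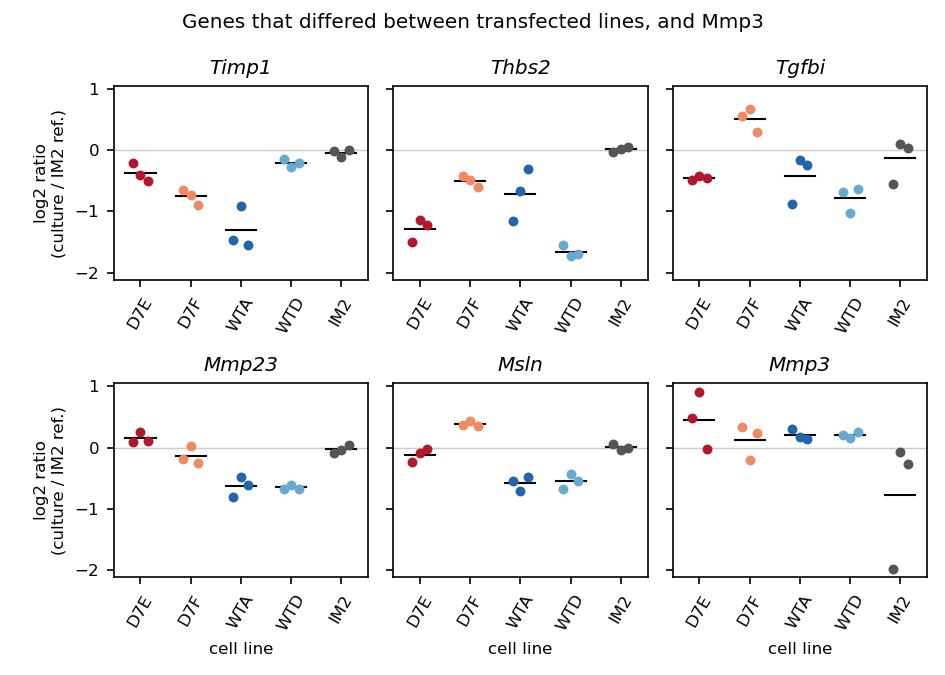
Log2 ratio of each culture over the IM2 reference for Timp1, Thbs2, Tgfbi, Mmp23 and Msln, which differed between transfected lines, and for Mmp3, with 1 point per culture, a bar for the line mean and the cell lines on the horizontal axis. Nid2, also called between transfected lines, is shown with the basement membrane genes. Timp1 is lowest in WTA and D7F, Thbs2 in WTD and D7E, Mmp23 and Msln are lower in both wild-type lines than in both mutant lines, and for Mmp3 1 IM2 culture lies at -1.98.

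Another 14 probes had too few measured cultures for a test. They are the only probes of Lamb2, Lamb3, Thbs1, Postn, Dcn, Lum, Fmod and Timp3, both probes of Lama1, and the other probes of Lama3, Mfap2 and Tnc. Fmod, the small leucine-rich proteoglycan fibromodulin, stood at -2.19 in the D7E culture that measured it, -0.37, -0.41 and -0.54 in D7F, -1.47, -0.95 and -0.82 in WTA, -0.85, -0.69 and -0.78 in WTD, and -0.18, 0.01 and 0.17 in IM2. The Fmod probe was filled on 30 arrays, with 2 values at the lower limit. Leaving these out took away D7E cultures 2 and 3, so its missing values were low ratios. All of its transfected cultures with a value were below its IM2 cultures. When 1 culture per line was enough for a test, Fmod differed from IM2 by -1.08 in WTA (adjusted p = 0.00811) and by -0.78 for WTD (adjusted p = 0.0431). When 1 dye orientation was enough for a culture value, no Fmod difference from IM2 passed (adjusted p = 0.0964 in D7E). Dcn, the related proteoglycan decorin, had line means of 0.02 in D7E, -0.06 in D7F, 0.28 in WTA and -0.05 in WTD, against 0.15 in the only IM2 culture that measured it. For Lum (lumican), 12 of 19 filled values lay at a limit and no culture had a value. Spp1, Fbn1, Vcan, Efemp1 and Efemp2 were not analysed here.

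Beside these genes, other matrix lists were counted for the 4-line mean against IM2. These lists were also chosen with earlier results known, and their counts stand beside 15.2% of all probes called in that comparison, 6.41% higher and 8.83% lower. Of 33 collagen and collagen-processing probes none was higher and 22 were lower, with a median of -0.83, beside a median of -0.31 for the 36 probes described here and 0.03 for all probes. Of 16 other extracellular proteases and inhibitors none was higher and 4 were lower: Htra1 (-1.11), a secreted serine protease, Mmp19 (-0.99), Plat (-0.41), which activates plasminogen, and Adam17 (-0.40), which sheds proteins from the cell surface. Of 16 TGF-beta pathway probes Fst (0.64), the activin antagonist follistatin, was higher and Ccn1 (-0.41) was lower, 12.5% of the list and so below the share of all probes. Of 22 probes for matrix receptors 2 were higher and 5 lower, with a median of 0.05. Cd36 and Cd47, receptors of thrombospondins named after their values were seen, were called in every transfected line. Cd36 was higher, by 1.12 in D7E, 0.80 in D7F, 1.29 in WTA and 0.60 in WTD, and a Cd47 probe was lower, at -1.15 in D7E, -1.11 in D7F, -1.30 in WTA and -1.39 in WTD, while a second Cd47 probe was lower in the 4-line mean, at -0.35 (limma, adjusted p = 0.0398), and passed in WTD alone of the 4 lines, at -0.57. The first of these Cd47 probes and Mmp19 are on part II, so that their signs rest on the direction assumed for that part. The same holds for some of the collagen probes that were lower.

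Markers of cell types were counted in the same comparison, beside the same shares of all probes. Of 16 skeletal muscle markers 6 were higher and none was lower (median 0.37), and of 6 fibroblast probes for 5 genes Dpt was higher (0.87) and none was lower (median -0.03). None of 4 smooth muscle, 2 endothelial, 1 epithelial, 1 cartilage and 1 adipocyte marker probes passed in the 4-line mean, and leukocyte markers were not tested. In single lines against IM2, the calls of markers other than those of skeletal muscle went both ways (limma). Fap, a fibroblast marker, was lower in D7E (-2.32, SE 0.61, adjusted p = 0.0398). Dpt was higher in WTA (1.71, adjusted p = 0.00102), and the smooth muscle marker Acta2 was higher in WTD (0.75, adjusted p = 0.0331). The part of these markers in the differences of the matrix genes was not tested. In RNA of whole cultures, fewer cells of a type and less RNA per cell cannot be told apart.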

How the data were processed

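The authors deposited log ratios of 60 two-channel arrays, 30 on each of 2 parts. Their base is not stated. They stop at -2 and 2, a ratio of 100 in base 10 and 4 in base 2, so base 10 (log10) was assumed for the deposited log10 ratios and they were multiplied by log2(10) to give log2 ratios. For scanning, background correction and normalisation, the steps were not given in the sources used here. Ratios hold no depth, and the culture is the unit of the tests, so the number of cultures, 3 per line, limits the precision. Groups, culture numbers and dyes came from the array titles and channel sources. Where these disagreed on the dye (WTA culture 3, part I), the channel sources were used, and for 1 array of D7F culture 1, described as high, the title was used.

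Limit values were treated as not measured, control probes were left out, and a culture's value is the mean of both dye orientations, which were both required. Names were updated by Entrez identifier through RefSeq (GRCm38.p6), which also supplied the promoters. Probes with values in 2 or more cultures of each line were tested with limma 3.58.1 in R 4.3.3 (lmFit and eBayes, all 5 lines in 1 model, each part alone), two-sided, with Benjamini-Hochberg adjustment over both parts for each of 10 comparisons and a threshold of 0.05. The fit was also run on simulated independent normal values with differences added in WTA. That simulation held no dye disagreement or arrays of low quality, so it checks the code and not the calls. Genes called in at least 1 comparison are given in every culture, and other tested genes by line means or their range. The genes, lists and alternatives were chosen with earlier results of these data known. The alternatives changed limit values, centring, scaling, dyes, filters, the direction of the IM2 arrays, arrays of low quality, the block, the lines in the fit, averaging of probes, and left out each culture in turn.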

Additional observations from a re-analysis of the deposited data

Results flagged for a closer look

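The effect of genotype was tested between the levels labelled high and low as the interaction (the average of WTD and D7E less that of WTA and D7F, limma with Benjamini-Hochberg adjustment), and 3 genes passed. The value was 0.74 for Timp1 (adjusted p = 0.00458), -0.87 for Thbs2 (adjusted p = 0.00391) and -0.66 for Tgfbi (adjusted p = 0.0452). The Tgfbi call ended in 10 of 15 fits that left out 1 culture and in 7 of 13 other settings, the block on culture number among them (adjusted p = 0.0596). For Timp1 the mutant line exceeded the wild-type line at the level labelled high, with means of -0.37 in D7E and -1.31 in WTA. At the level labelled low the mutant line lay below the wild-type line, with -0.75 in D7F and -0.21 in WTD. For Thbs2 the mutant line lay below the wild-type line at the level labelled high (-1.29 in D7E and -0.71 in WTA). It lay above the wild-type line at the level labelled low (-0.50 in D7F and -1.66 in WTD). For Tgfbi the means were -0.45 in D7E and -0.42 in WTA, and 0.51 in D7F and -0.78 in WTD. With a single line for each combination, the interaction and a difference between single lines cannot be told apart. Lines of the same label also had unlike Pabpn1 differences from IM2, at 1.79 in D7E and 2.37 in WTA, and at 1.09 in D7F and 1.61 in WTD. By limma, Pabpn1 did not pass in D7E minus WTA (adjusted p = 0.0567) or in D7F minus WTD (adjusted p = 0.201). The part of the Pabpn1 level in these values was not tested.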

How the results depend on the processing

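Each count below is of the 36 probes, or of those testable in that setting, that passed at an adjusted p under 0.05 (limma). In brackets is the share of all probes that passed in the same fit, which moved as well. With 1 dye orientation enough for a value (48 testable), 1 probe passed in D7E against WTA (0.181%), 2 in D7F against IM2 (1.17%), 1 in D7F against WTD (0.0987%) and 6 in WTD against IM2 (1.39%). Cy3 arrays alone (39 testable) gave 1 in D7F against WTD (0.109%) and 5 in WTD (2.26%). Cy5 arrays alone (40 testable) gave 0 in D7E against WTA (0.0778%), 2 in D7F (0.786%), 1 in D7F against WTD (0.125%), 7 in WTA (2.26%), 5 in WTD (1.70%), 1 for the interaction (0.288%), 8 for the mean of the lines (5.44%) and 1 for mutant against wild-type (0.0389%). With all 3 cultures required (27 testable), 7 passed in D7F (10.2%) and 7 for the interaction (7.89%). Centred arrays (36 testable) gave 2 in D7E against WTA (2.17%), and arrays centred and scaled gave 1 there (1.37%), 5 in D7F against WTD (1.05%), 7 in WTA (3.92%), 16 in WTD (11.8%) and 6 for the interaction (2.82%). With 1 culture per line enough (46 testable), 2 passed in D7E against WTA (0.456%) and 1 in high against low (0.150%), and with limit values kept (45 testable) 1 passed in high against low (0.147%). With the compared lines fitted alone (38 to 43 testable), 4 passed in D7E (1.70%), 0 in D7E against WTA (0.0141%), 1 in D7F (0.157%), 0 in D7F against WTD (0.0216%) and 0 in WTA (0.00942%). With the IM2 ratios turned in sign (36 testable), 8 passed in D7F (7.30%). Without arrays of low quality (33 testable), 2 passed in D7E against WTA (0.546%), 2 in D7F (1.32%), 4 in WTD (1.20%) and 9 for the mean (3.44%). With Cy3 arrays alone 41 of the 64 calls held, and with Cy5 arrays alone 30 held. The causes of these changes were not tested. The differences that changed sign were those of Mfap2 with limit values kept (0.17 in D7E, 0.0507 in WTA, 0.0763 in WTD and 0.16 in the mean of the lines), where an IM2 array at the lower limit entered the mean, and of Mmp3 with the IM2 ratios turned in sign (-0.52).

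Leaving out each culture in turn (30 to 36 testable, with the range of the share of all probes in brackets) gave 6 to 9 probes in D7E (8.87% to 19.4%), 2 to 9 in D7F (2.42% to 9.60%), 13 to 18 in WTA (6.48% to 17.9%), 6 to 13 in WTD (3.13% to 14.2%), 11 to 15 in the mean of the lines (10.2% to 23.2%), 2 to 6 in D7E against WTA (0.519% to 4.38%), 1 to 5 in D7F against WTD (0.156% to 0.841%), 2 in mutant against wild-type (0.108% to 0.364%), 0 to 1 in high against low (0.217% to 0.954%) and 2 to 5 for the interaction (1.02% to 5.35%). The culture numbers do not pair the cultures by the labels: deviations of same-numbered cultures correlated from -0.18 to 0.29 on part I and from -0.17 to 0.40 on part II, and 6 of 15 and 8 of 15 cultures correlated best with their own number. With the culture number as a replicate block, 2 probes passed in D7E against WTA (0.824% of all probes) in place of 4 (1.64%), and the other counts stayed within 1.5 times. The calls that ended with the block were those of Msln and Nid2 in D7E against WTA (adjusted p = 0.0761 and 0.0783), Mgp in WTA against IM2 (0.0574), Mmp3 in the mean of the lines (0.0666) and Tgfbi in the interaction (0.0596).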
